A study of Mus musculus with 9 samples.

Results

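The cytosolic ribosomal protein genes are the 79 genes on the array that carry the gene name of a protein of the large subunit (Rpl genes, with the stalk genes Rplp0, Rplp1 and Rplp2) or of the small subunit (Rps genes, with Rpsa). They were picked out by gene name, from the non-control spots, by a rule set with earlier results of these data known. The rule found 140 spots of 131 probes, for 47 large subunit and 32 small subunit genes, among 22715 genes tested in all. The paralogs Rpl3l and Rps27l are among the 79, and the other ribosome components Fau and Rack1 are not.

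RNA was measured on 9 single-colour arrays of cells from the tibialis anterior, a hindlimb muscle, of 3-month-old mice. The iPax3 group and the iPax7 group, 3 arrays each, held mononucleated cells re-isolated from muscle into which pluripotent stem cell-derived myogenic progenitors had been injected. The lines are named after Pax3 and Pax7, transcription factors of muscle progenitors. The labels give the strain of both groups as NSG/NSGmdx4cv, immunodeficient mice with and without a dystrophin mutation, and do not say which of them each sample came from. The satellite group, 3 arrays, held satellite cells, which are muscle stem cells, sorted from adult Pax7-ZsGreen mice, in which a green fluorescent protein reports Pax7 expression. Each re-isolated group stands for a single line, and the labels do not name the marker by which donor cells were told from host cells. In all 3 groups RNA from 1500 sorted cells, taken from 3 mice per line in 3 independent experiments, was amplified as cDNA before labelling. The question was how re-isolated cells compare with satellite cells, and how the lines compare with each other.

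Each cytosolic ribosome holds nearly every one of these proteins once, so that cells make them in matched amounts, and their messages are among the most abundant in most cells. The small subunit decodes the message and the large subunit joins the amino acids. Many of these messages begin with a C followed by an unbroken run of pyrimidines, through which growth signals acting on the kinase mTOR and the RNA-binding protein Larp1 control their translation. Quiescent satellite cells are known for low protein synthesis, which increases when they are activated.

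Some of the start regions show this run. Examples are given here because ribosomal protein messages are known for it. Sequences are from RefSeq, build GRCm38.p6, and each runs from 60 bases before the annotated start to the first 30 transcribed bases. Capitals mark a pyrimidine run that begins with C within 5 bases before or after the annotated start. They also mark the letters CCGGAAG, a core bound by the ETS family of transcription factors. Rps6 (chr4:86857338-86857427, minus strand), Rps18 (chr17:33955636-33955725, minus strand) and Rpl13a (chr7:45128716-45128805, minus strand) hold the run, Rpl11 (chr4:136053364-136053453, minus strand) the CCGGAAG core, and Rpl31 (chr1:39367791-39367880, plus strand) both.
Rps6: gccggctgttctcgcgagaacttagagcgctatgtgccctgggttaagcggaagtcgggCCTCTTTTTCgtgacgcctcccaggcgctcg
Rps18: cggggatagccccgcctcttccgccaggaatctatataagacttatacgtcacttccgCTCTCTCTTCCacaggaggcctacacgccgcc
Rpl13a: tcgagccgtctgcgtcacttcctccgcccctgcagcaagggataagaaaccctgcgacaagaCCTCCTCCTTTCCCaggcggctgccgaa
Rpl11: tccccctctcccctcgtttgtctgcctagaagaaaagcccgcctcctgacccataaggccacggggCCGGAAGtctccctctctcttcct
Rpl31: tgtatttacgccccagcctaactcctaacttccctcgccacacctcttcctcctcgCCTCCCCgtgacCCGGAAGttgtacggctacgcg

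Of the 79 genes, 59 had a start region in the RefSeq table, which holds 250 bases before and 50 after each start. A run of at least 5 pyrimidines that begins with C within 5 bases of the start, on the gene's own strand, stood at 28 of the 59 (47.5%), against 21.2% of 27025 genes in the table. CCGGAAG, on either strand, stood in 25 of the 59 (42.4%), against 9.93% of all. Its reverse strand contains a short pyrimidine run, so that the same bases can count for both, and 16 genes held both features. TATAAA, the core of the TATA box, on either strand, stood in 10.2% of the members' regions and in 15.7% of all. The median log2 difference of iPax3 minus satellite cells was -1.12 over the 28 genes with the pyrimidine run and -0.76 over the 31 without it, and that of iPax7 minus satellite cells was -0.54 with the run and -0.45 without. Divided by CCGGAAG, the iPax3 median was -0.99 over the 25 genes with these letters and -0.90 over the 34 without, and the iPax7 median was -0.24 with them and -0.55 without. These are descriptions of letters and medians, with no test.

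All levels are log2 signals minus the 75th percentile of their own array, so that 0 is that percentile and a step of 1 is a doubling. A level holds for its own probe and is not set against that of another gene. Differences come from limma, fitted over all genes, with the standard error of the fit after the sign ±, and adjusted p-values are Benjamini-Hochberg values over all 22715 genes. Every member was tested. In all, 76 of the 79 were well above background on all 9 arrays, and Rpl3l and Rpl14 were among the other 3.

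The share of all probes well above background ran from 69.2% to 77.3% on iPax3 arrays, from 56.7% to 73.2% on iPax7 arrays and from 57.1% to 79.7% on satellite arrays. The 3 iPax3 arrays and iPax7 replicate 1 shared a slide, iPax7 replicates 2 and 3 shared another, and each satellite array had a slide of its own. All re-isolated arrays were scanned on the same day. Satellite replicate 1 was scanned alone on another day, and satellite replicates 2 and 3 together on a further day. Re-isolated and satellite samples shared neither a slide nor a scan day, so slide, scan day and mouse strain cannot be told apart from the groups. Markers were checked beside the labels. Of 12 satellite cell markers, 11 had lower fitted values in the re-isolated lines together than in satellite cells and 1, Chrdl2, passed, while Pax7 was well above background on every array. The summed signal of these markers, on the log2 scale, spanned 5.58 to 5.81 in iPax3, 5.26 to 6.49 in iPax7 and 7.18 to 8.0 in satellite cells. Of 11 fibroblast and fibro-adipogenic markers, all 11 were higher and 9 passed, with summed signals of 8.86 to 9.76 in iPax3, 9.21 to 10.1 in iPax7 and 4.82 to 6.42 in satellite cells. Cd34 stands on both lists and counts in both sums, and it is the 1 satellite cell marker that was higher. The satellite arrays of these lists and those of the ribosomal protein genes are the same 3, and the part of cell makeup in the values below was not tested. In RNA from sorted pools, fewer cells of a type and less RNA per cell cannot be told apart.

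The median of the ribosomal protein genes was on average lower on the re-isolated arrays than on the satellite arrays, but arrays of the same group also differed. The median level over the members was 4.15, 3.54 and 4.52 on the iPax3 arrays, 5.58, 4.01 and 4.54 on the iPax7 arrays, and 4.98, 5.19 and 6.05 on the satellite arrays. The group means of these medians were 4.07 ± 0.50 (iPax3), 4.71 ± 0.80 (iPax7) and 5.41 ± 0.57 (satellite) (SD, n = 3 each). Every iPax3 array lay below every satellite array, while iPax7 replicate 1 lay above satellite replicates 1 and 2. The members' spots took 3.38%, 2.47% and 4.32% of the summed signal on iPax3 arrays, 4.69%, 3.67% and 4.01% on iPax7 arrays, and 5.62%, 4.41% and 5.97% on satellite arrays. A single array decided where most genes peaked: satellite replicate 3 held the highest value of 47 members and iPax7 replicate 1 that of 23, while iPax3 replicate 2 held the lowest value of 38. The 3 arrays with the highest median of the members were iPax7 replicate 1 and satellite replicates 2 and 3, and these were also the 3 with the smallest shares of probes above background (56.7%, 57.1% and 60.4%). The part of that share in the differences was not tested.

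**Figure D1:**
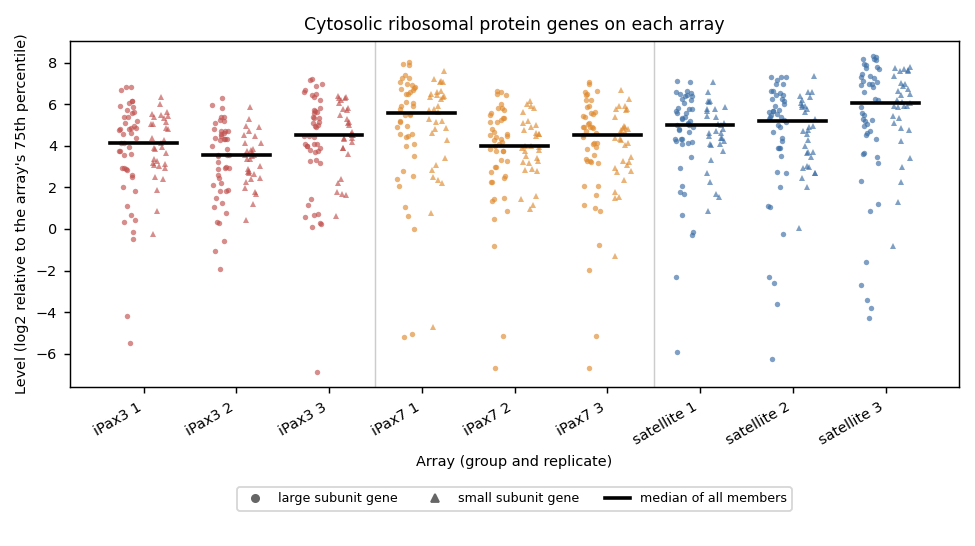
Level of each of the 79 ribosomal protein genes on each array (vertical axis, log2, with 0 at the array's 75th percentile), with large subunit genes as circles, small subunit genes as triangles and the median of all members as a black line. The medians run from 3.54 to 4.52 on iPax3 arrays, from 4.01 to 5.58 on iPax7 arrays and from 4.98 to 6.05 on satellite arrays.

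In iPax3 cells against satellite cells, 0 of the 79 members passed an adjusted p of 0.05 in limma, where 0.431% of all genes did. The fitted difference was below 0 for 66 of the 79 and above 0 for 13, with a median of -0.97, beside 54.7% of all genes below 0 and a median of -0.18 over all genes. The median was -1.01 over the large subunit (38 of 47 below 0) and -0.95 over the small subunit (28 of 32 below 0). At an unadjusted p under 0.05, 13 members were lower and 1 was higher, where 5.64% of all genes were lower and 6.79% higher. For 26 members every iPax3 array lay below every satellite array, where 10.4% of all genes did so, and for 1 member every iPax3 array lay above, where 8.6% did so. The smallest adjusted p of a member was 0.189. The median standard error of a member's difference was 0.80, so that a typical member's difference was of the same order as its error.

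In iPax7 cells against satellite cells, which share the satellite arrays with the comparison above, 0 of 79 members passed in limma, where 0.533% of all genes did. The difference was below 0 for 61 members, with a median of -0.54, beside 54.1% of all genes and their median of -0.15. The large subunit had a median of -0.49 and the small subunit one of -0.54. At an unadjusted p under 0.05, 6 members were lower (5.57% of all genes) and 1 was higher (6.83%). The groups did not overlap for 12 lower members, where 8.88% of all genes had this, and for 1 higher member, where 7.64% had it. With both lines as 1 group against satellite cells, again 0 of 79 passed, where 1.04% of all genes did, with 65 members below 0 (54.4% of all genes), a median of -0.78 and a smallest adjusted p of 0.153. At an unadjusted p under 0.05, 14 were lower (7.31% of all genes) and 1 was higher (8.06%). All 6 re-isolated arrays lay below all 3 satellite arrays for 9 members (4.36% of all genes) and above them for 1 (4.13%).

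**Figure D2:**
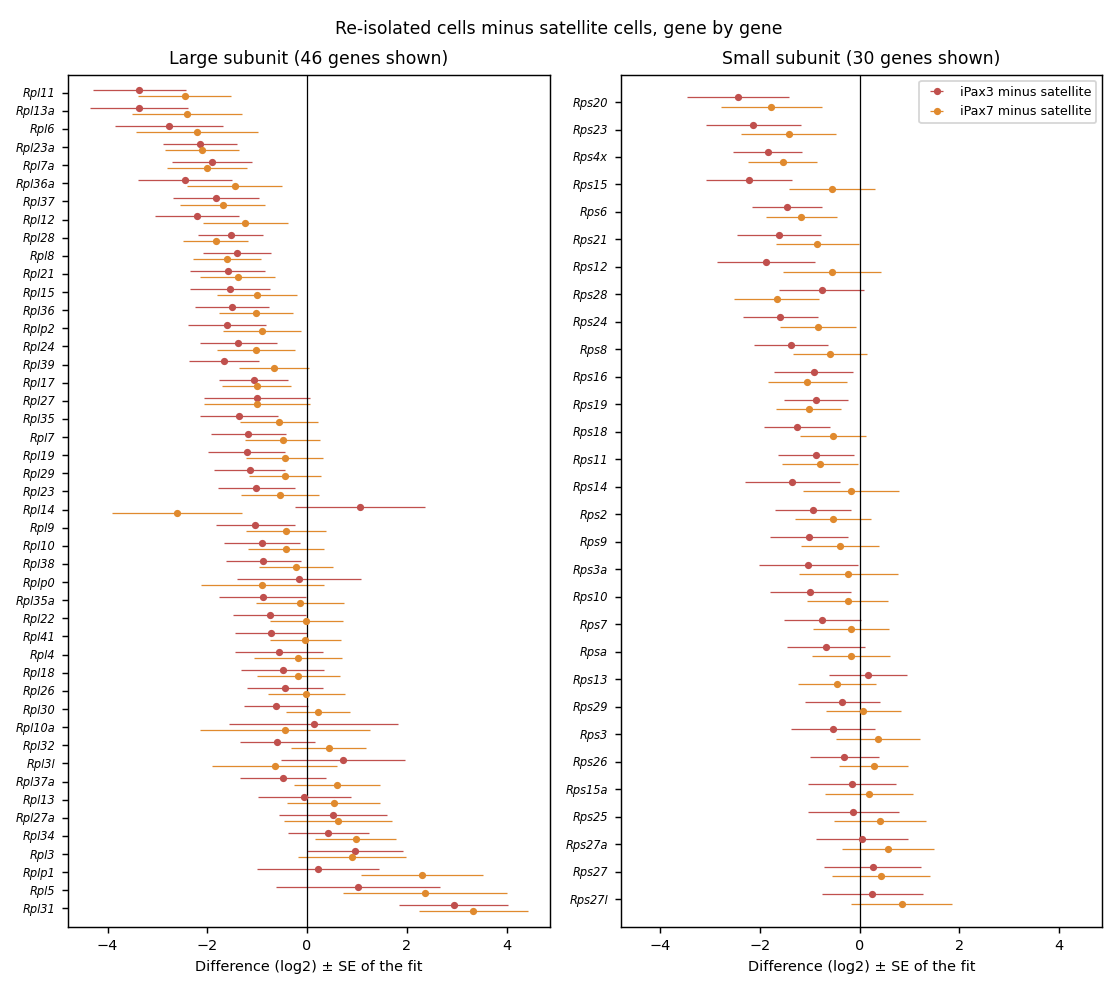
Difference of iPax3 minus satellite cells and of iPax7 minus satellite cells for 76 of the 79 members (horizontal axis, log2; bars are the standard error of the limma fit; 3 arrays a group), ordered by the difference of both lines together. The points lie mostly left of 0 for both lines, with medians of -0.97 and -0.54 over all 79, and Rpl31 stands at the right end with 2.93 and 3.33.

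Rpl11 and Rpl13a had nearly equal and large negative differences among large subunit genes. Rpl11 encodes a protein that sits beside the 5S ribosomal RNA and that, when unassembled, binds and inhibits the p53 regulator Mdm2. It measured -0.14, 0.35 and 0.58 on the iPax3 arrays, 0.64, 0.85 and 2.05 on the iPax7 arrays, and 1.79, 3.89 and 5.21 on the satellite arrays. The iPax3 and satellite arrays did not overlap, whereas iPax7 replicate 3 lay above satellite replicate 1. The difference was -3.37 ± 0.93 for iPax3 (adjusted p = 0.189) and -2.45 ± 0.93 for iPax7 (adjusted p = 0.339). Satellite replicate 1 decided this call: without it Rpl11 passed for iPax3, at -4.28 with an adjusted p of 0.0367, and for both lines together, at -3.83 with an adjusted p of 0.0283. Leaving that array out also raised the number of all genes that passed, from 98 to 453 for iPax3 and from 236 to 715 for both lines. The only member among them was Rpl11. Rpl5, its partner on the 5S RNA, measured 2.60, 1.88 and 3.33 on the iPax3 arrays, 3.99, 4.49 and 3.37 on the iPax7 arrays, and 4.76 and -1.61 in satellite replicates 1 and 3. Its spot on satellite replicate 2 was an outlier spot and was left out of the fit. The remaining satellite values lie on either side of the re-isolated ones, and the difference of 2.37 ± 1.64 for iPax7 had an adjusted p of 0.595.

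Rpl13a, which in human cells also acts outside the ribosome as a repressor of translation after interferon-gamma, measured 1.11, 2.93 and 3.77 on the iPax3 arrays, 2.99 and 4.13 on iPax7 replicates 2 and 3, and 5.39, 5.15 and 7.37 on the satellite arrays. All measured re-isolated arrays lay below all satellite arrays, and an outlier spot was left out of iPax7 replicate 1. The differences were -3.37 ± 0.99 for iPax3 (adjusted p = 0.236) and -2.41 ± 1.1 for iPax7 (adjusted p = 0.425). Rpl23a, a protein at the exit of the peptide tunnel, measured 4.36, 4.33 and 4.46 on the iPax3 arrays, 5.54, 3.83 and 3.93 on the iPax7 arrays, and 5.77, 6.54 and 7.30 on the satellite arrays. These groups did not overlap either, and the difference for both lines together was -2.13 ± 0.64 (adjusted p = 0.182). Rpl6 measured 4.59, 1.24 and 3.27 on the iPax3 arrays, 2.75 and 4.43 on iPax7 replicates 2 and 3 (replicate 1 was an outlier spot), and 4.66, 5.67 and 7.07 on the satellite arrays. Its lowest satellite value lay only just above its highest re-isolated value. Rpl36a and Rpl7a, both of the large subunit, had differences of -2.45 ± 0.95 and -1.91 ± 0.80 for iPax3 and of -1.45 ± 0.95 and -2.0 ± 0.80 for iPax7, none of which passed. Over the 3 probes of Rpl7a, the difference ran from -1.91 to -0.33 for iPax3 and from -2.0 to 0.05 for iPax7.

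Rpl31 went the other way. This protein lies at the rim of the peptide exit tunnel. Its level was 0.41, 0.27 and 0.12 on the iPax3 arrays, 2.53, 1.43 and -1.96 on the iPax7 arrays, and -2.32, -2.29 and -3.40 on the satellite arrays. It was the 1 member for which every re-isolated array lay above every satellite array. The difference was 2.93 ± 1.09 for iPax3 (adjusted p = 0.328) and 3.33 ± 1.09 for iPax7 (adjusted p = 0.271), and it did not pass. Its second probe differed by 2.77 for iPax3 and 0.96 for iPax7. Over the other settings tried, the difference of Rpl31 ran from 1.67 to 3.11 for iPax3 and from 0.06 to 3.57 for iPax7. Rpl34 and Rpl3 also had positive differences: 0.42 ± 0.81 and 0.96 ± 0.97 for iPax3, and 0.98 ± 0.81 and 0.89 ± 1.08 for iPax7. Both were lowest on satellite replicate 3, at 3.63 for Rpl34 and 2.30 for Rpl3, the array on which most other members were highest.

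Rpl14 and Rpl10a had wide spreads. Rpl14 measured -4.17, -0.60 and 0.24 on the iPax3 arrays, -5.21, -5.16 and -5.15 on the iPax7 arrays, and -0.30, -3.59 and -3.81 on the satellite arrays. It was well above background on 1 of 3 iPax7 arrays, and its difference was 1.05 ± 1.30 for iPax3 and -2.61 ± 1.30 for iPax7, with adjusted p-values of 0.748 and 0.458. Rpl10a was at 2.03, 1.06 and 3.17 on the iPax3 arrays, 2.04, 1.35 and 1.14 on the iPax7 arrays, and 4.32, 4.24 and -2.69 on the satellite arrays. Satellite replicate 3 alone was low, and without it the differences reached -2.19 for iPax3 and -2.77 for iPax7, against 0.13 and -0.44 with it.

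The steadiest large subunit gene was Rpl30, with 3.54, 3.00 and 3.98 on the iPax3 arrays, 4.91, 4.01 and 4.09 on the iPax7 arrays, and 4.16, 3.90 and 4.32 on the satellite arrays. The iPax7 arrays lay just above the iPax3 arrays, the satellite arrays overlapped both, and its differences were -0.62 ± 0.64 for iPax3 and 0.21 ± 0.64 for iPax7. Rpl26 differed by -0.44 ± 0.76 for iPax3 and by -0.01 ± 0.76 for iPax7.

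Among small subunit genes, Rps20 measured 3.08, 2.26 and 3.88 on the iPax3 arrays, 4.61, 3.40 and 3.23 on the iPax7 arrays, and 3.31, 6.58 and 6.65 on the satellite arrays. Satellite replicate 1 lay among the re-isolated arrays and the others well above them, and the difference for iPax3 was -2.45 ± 1.02 (adjusted p = 0.374). The second probe of Rps20 differed by -0.42 for iPax3 and 0.09 for iPax7, and its r with the used probe was -0.43. Rps15 and the decoding-site protein Rps23 differed by -2.21 ± 0.86 and -2.13 ± 0.96 for iPax3, and by -0.56 ± 0.86 and -1.42 ± 0.96 for iPax7.

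Rps6 is the ribosomal protein that S6 kinases phosphorylate downstream of mTOR. Its message measured 5.03, 3.81 and 5.49 on the iPax3 arrays, 5.27, 4.99 and 4.92 on the iPax7 arrays, and 5.75, 6.06 and 6.87 on the satellite arrays. Every re-isolated array lay below every satellite array, with differences of -1.45 ± 0.70 for iPax3 (adjusted p = 0.433) and -1.17 ± 0.70 for iPax7 (adjusted p = 0.532). Rps19, the gene most often mutated in Diamond-Blackfan anaemia, measured 1.86, 1.70 and 2.19 on the iPax3 arrays, 2.21, 1.61 and 1.50 on the iPax7 arrays, and 2.28, 2.69 and 3.43 on the satellite arrays. It too had no overlap and a small spread, with differences of -0.88 ± 0.64 for iPax3 and -1.03 ± 0.64 for iPax7, neither of which passed. Rpsa, also known as the laminin receptor precursor, differed by -0.67 ± 0.78 for iPax3 and -0.17 ± 0.78 for iPax7, with overlapping groups. Rps18 differed by -1.25 ± 0.66 for iPax3 and -0.54 ± 0.66 for iPax7.

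Rps28 measured 4.83, 2.73 and 4.55 on the iPax3 arrays, 2.83, 3.87 and 2.72 on the iPax7 arrays, and 5.42, 3.66 and 5.33 on the satellite arrays. Satellite replicate 2 lay among the re-isolated arrays, and the differences were -0.76 ± 0.85 for iPax3 and -1.66 ± 0.85 for iPax7.

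A few small subunit genes had differences near or above 0. Rps26, which contacts the message upstream of the start codon, measured 5.63, 4.95 and 6.29 on the iPax3 arrays, 7.08, 5.63 and 5.92 on the iPax7 arrays, and 5.77, 5.97 and 6.05 on the satellite arrays, with differences of -0.31 ± 0.70 for iPax3 and 0.28 ± 0.70 for iPax7. Rps29, Rps25, Rps13 and Rps27a, which is made as a fusion with ubiquitin, had differences between -0.45 and 0.56 in both lines. The standard errors of these differences ran from 0.75 to 0.92.

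**Figure D3:**
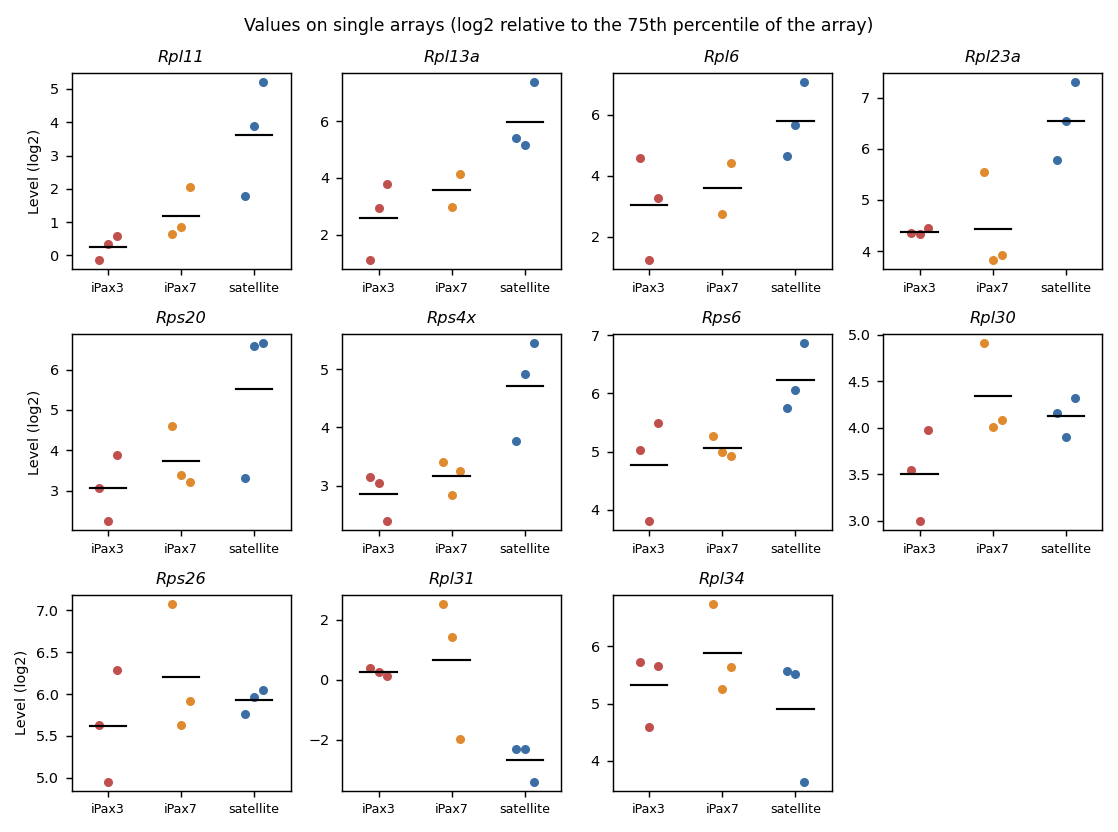
Level of 11 members on each array (vertical axes, log2, with 0 at the array's 75th percentile, and a separate scale for each gene), with 3 arrays for iPax3, iPax7 and satellite cells and black lines at the group means. Rpl13a, Rpl23a, Rps4x and Rps6 show re-isolated values below all satellite values, Rpl31 shows the opposite, and Rpl30 and Rps26 overlap; Rpl13a and Rpl6 have 2 iPax7 values.

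The stalk of the large subunit, which recruits elongation factors, is built from Rplp0, Rplp1 and Rplp2. Rplp2 measured 1.84, 1.47 and 0.30 on the iPax3 arrays, 2.41, 2.28 and 0.99 on the iPax7 arrays, and 2.08, 2.69 and 3.65 on the satellite arrays. Its iPax3 arrays lay below all satellite arrays and its iPax7 arrays overlapped them, with differences of -1.60 ± 0.78 and -0.91 ± 0.78. Rplp1 measured -0.48, 0.75 and 0.69 on the iPax3 arrays, 4.09, 1.47 and 1.62 on the iPax7 arrays, and 1.66, -2.58 and 1.22 on the satellite arrays. The high iPax7 value was replicate 1 and the low satellite value replicate 2, and the difference of 2.30 ± 1.23 for iPax7 had an adjusted p of 0.487. Rplp0 differed by -0.17 ± 1.24 for iPax3 and -0.90 ± 1.24 for iPax7. The 3 stalk genes thus gave fitted differences of different sign and size, and none passed.

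Of the paralogs, Rpl3l replaces Rpl3 in the ribosomes of adult striated muscle. Its probe was well above background on 1 of 3 iPax3 arrays, 0 of 3 iPax7 arrays and 2 of 3 satellite arrays, so that the iPax7 group has only a bound and no fold is given. Rps27l, a near-identical relative of Rps27, measured -0.24, 0.45 and 0.60 on the iPax3 arrays, 2.49, 1.44 and -1.31 on the iPax7 arrays, and 0.86, 0.03 and -0.81 on the satellite arrays. The groups overlapped, and the differences were 0.25 ± 1.01 for iPax3 and 0.85 ± 1.01 for iPax7. Rps27 itself differed by 0.26 ± 0.98 and 0.43 ± 0.98. Rps4x, the X-linked gene of its family, measured 3.15, 3.04 and 2.39 on the iPax3 arrays, 3.41, 2.83 and 3.25 on the iPax7 arrays, and 3.76, 4.91 and 5.45 on the satellite arrays. It had no overlap in either line, with differences of -1.85 ± 0.69 and -1.54 ± 0.69 (adjusted p = 0.332 and 0.407). Rpl10 and Rpl39, whose testis paralogs were not among the 79, differed by -0.90 ± 0.76 and -1.66 ± 0.71 for iPax3 and by -0.43 ± 0.76 and -0.66 ± 0.71 for iPax7.

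Between the lines, 0 of the 79 members and 0% of all genes passed for iPax7 against iPax3 in limma. The difference was above 0 for 65 members and below 0 for 14, with a median of 0.55 and 0.07 over all genes. At an unadjusted p under 0.05, 1 member was lower (2.36% of all genes) and 0 were higher (1.74%). The groups did not overlap for 7 higher members (4.46% of all genes) and 1 lower member (4.89%). The lower one by p was Rpl14, at -3.66 ± 1.30, a value that rests on a probe well above background on 1 of 3 iPax7 arrays. The most positive differences were those of Rplp1 (2.07 ± 1.23), Rps15 (1.66 ± 0.86), Rpl5 (1.35 ± 1.47) and Rps12 (1.33 ± 0.98). The size of the shift rested on 2 arrays. Without iPax7 replicate 1 the median was 0.16, which was 0.19 above that of all genes, and 28 members were below 0. Without iPax3 replicate 2 the median was 0.22, which was 0.06 above that of all genes, and 24 of 78 members were below 0. On the slide that iPax7 replicate 1 shared with the 3 iPax3 arrays, the median of that array minus the iPax3 mean was 1.36, a value with a single iPax7 array.

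The members moved together from array to array. Over the 75 members with a value on all 9 arrays, the correlation of a gene with the mean of the other members had a median Pearson r of 0.81 and ran from -0.39 to 0.98, with 60 genes above 0.5 and 7 below 0. The genes below 0 included Rpl31, Rpl10a, Rps13, Rpl14, Rpl3l and Rpl34. Other genes had a median r of 0.04 with the members' mean, and 17.6% of them were above 0.5. With group means removed, the members' median r was 0.80, so that the shared part lay also within groups. The points share the arrays and their scaling, and the correlations are descriptions with no test. The median SD within groups was 0.84 for members and 1.31 for all genes, and 68 of the 79 members had a smaller SD than that median. The members' probes were also bright: on single arrays their median signal lay 4.53 to 7.37 log2 units above that of all genes. The part of brightness in the SD and in the correlations was not tested.

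Among the 5 other genes whose values followed the members' mean most closely over the 9 arrays were Mt2, a metallothionein (r = 0.990), Ptma, prothymosin alpha (0.982), and the array features NAP028768-1 (0.976) and NAP061240-1 (0.973), which the files name only so. Mt2 measured 6.35, 5.83 and 6.77 on the iPax3 arrays, 7.38, 6.19 and 6.45 on the iPax7 arrays, and 7.01, 6.67 and 7.92 on the satellite arrays. It shared the members' order, with satellite replicate 3 and iPax7 replicate 1 highest and iPax3 replicate 2 lowest. None of the 5 passed in any comparison.

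The probes decide which stretch of a message is read. Those shown next belong to genes on which the results turn, and each holds no stop codon in at least 1 reading frame: Rpl13a (chr7:44995132-44995307) and Rpl23a (chr11:77997756-77999024), both on the minus strand of build mm8, the build of the array files. Both span more of the genome than their length, since they cross a splice junction.
Rpl13a: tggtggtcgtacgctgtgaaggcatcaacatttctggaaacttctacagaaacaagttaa
Rpl23a: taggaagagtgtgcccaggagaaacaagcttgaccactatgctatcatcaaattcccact

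Ribosomal protein genes have many processed pseudogenes with near-identical sequence, and signal from such copies cannot be told apart from that of the gene by a probe's value. Of the 131 probes, 129 passed the filter, and 37 genes had at least 2 of them. Probes of the same gene differed in the sign of the difference in 9 of these 37 genes for iPax3, in 14 for iPax7 and in 12 for both lines together against satellite cells. They were all below 0 in 25, 20 and 23 genes. The lowest correlation of another probe with the probe used had a median of 0.53 over the 37 genes, was below 0 in 10 and above 0.5 in 21.

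Rpl35a shows how much this can matter. Its brightest probe and a second probe (chr16:32977241-32978436 and chr16:32977256-32978456, plus strand, mm8) overlap by 45 bases, of which 4 differ, in capitals below.
Rpl35a used probe: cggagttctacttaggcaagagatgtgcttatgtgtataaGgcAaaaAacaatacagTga
Rpl35a second probe: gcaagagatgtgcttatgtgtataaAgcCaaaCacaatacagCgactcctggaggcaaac
The used probe measured 3.76, 2.94 and 4.48 on the iPax3 arrays, 5.80, 3.76 and 3.86 on the iPax7 arrays, and 4.98, 5.41 and 3.46 on the satellite arrays. The second probe measured 3.53, 2.84 and 3.73 on the iPax3 arrays, 5.67, 3.15 and 3.47 on the iPax7 arrays, and 3.99, 4.52 and 0.12 on the satellite arrays. They parted most on satellite replicate 3, and the difference of both lines from satellite cells was -0.52 with the used probe and 0.86 with the second.

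The probes of Rps24 disagreed widely. Its used probe differed by -1.59 for iPax3 and -0.83 for iPax7, while the other 2 probes differed by 1.81 and 3.19 for iPax3 and by 1.04 and 2.98 for iPax7. These other probes correlated negatively with the used one over the arrays, at r of -0.54 and -0.59. Rps24 is known to be spliced into several isoforms that differ at the end of the message. For both lines together, the genes whose probes parted in sign included Rps19 (-0.95 with the used probe, up to 1.52), Rpl13 (0.24 and down to -2.13), Rpl27a (0.57 and -1.99), Rpl37 (-1.76 and 0.47) and Rps15a (0.02 and -2.94). The probes of Rpl6, and those of Rpl31, had the same sign in each comparison with satellite cells.

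**Figure D4:**
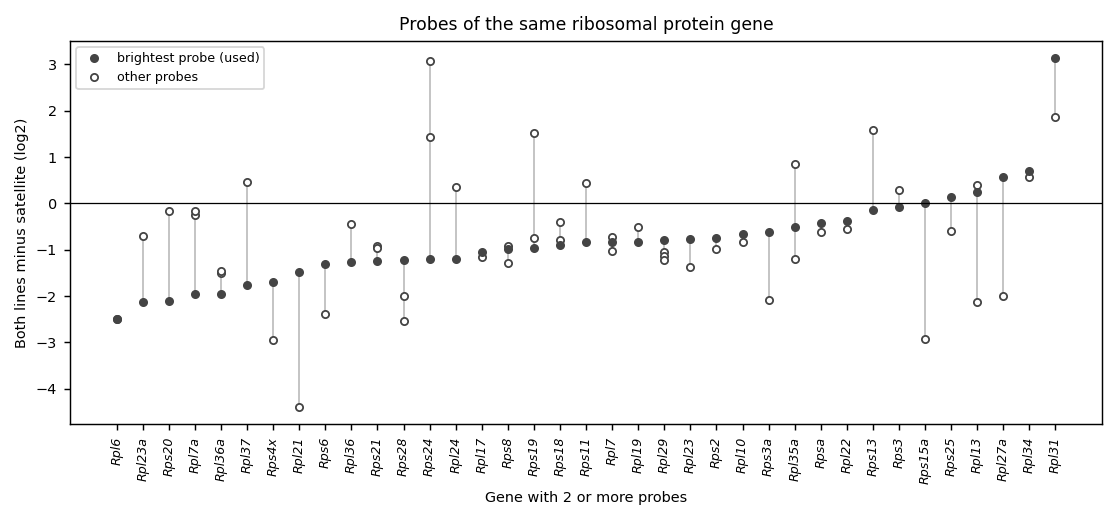
Difference of both re-isolated lines minus satellite cells (vertical axis, log2) for every probe of the 37 members with 2 or more probes, with the brightest probe filled and the others open. In 12 of the 37 genes the probes lie on both sides of 0, and Rps24 runs from -1.21 to 3.08.

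The rest of the translation machinery was read from lists chosen for their roles. Of the 6 other cytosolic ribosome components tested, 5 had differences below 0 for both lines together and 0 passed. Rack1, a scaffold on the small subunit, measured 3.31, 2.03 and 2.35 on the iPax3 arrays, 0.97, 2.63 and 1.68 on the iPax7 arrays, and 4.13, 5.34 and 6.35 on the satellite arrays. These groups did not overlap, and the difference for both lines together was -3.11 ± 0.71 (adjusted p = 0.0886).

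Of 10 elongation genes, 5 were below 0 for both lines together and 0 passed. Eef1d and Eef1g, subunits of the factor that reloads Eef1a with GTP, had differences of -4.29 ± 1.01 (adjusted p = 0.0977) and -2.66 ± 0.79 (adjusted p = 0.173), while Eef1a1 itself differed by 0.04 ± 0.61. The lists of 30 initiation genes, 13 translation repressors and mTORC1 regulators, 34 ribosome biogenesis genes and 14 genes of RNA polymerase I and rRNA transcription had 0 members that passed in any comparison, with medians of -0.11, -0.53, -0.30 and -0.77 for both lines together. Of 76 mitochondrial ribosomal protein genes, which encode a separate ribosome, 42 were below 0 for both lines together, where 54.4% of all genes were. Their median was -0.09, beside -0.16 over all genes. Mrps7, of its small subunit, was the 1 that passed: it measured 0.12, 0.00 and 2.04 on the iPax3 arrays, 2.28, 2.15 and 1.93 on the iPax7 arrays, and -2.13, -3.15 and -2.06 on the satellite arrays. Its limma difference was 4.57 ± 0.76 in iPax7 cells (adjusted p = 0.0416) and 3.86 ± 0.66 in both lines together (adjusted p = 0.0335). Of all genes, 0.533% and 1.04% passed in these comparisons, so 1 call in a list of 76 is near that share. Endothelial, leukocyte, differentiated muscle, cell cycle and reference gene lists had 0 members that passed in any comparison. The median level of the 10 reference genes was 2.34, 1.83 and 3.62 on iPax3 arrays, 2.48, 2.45 and 2.31 on iPax7 arrays, and 2.66, 0.55 and 2.25 on satellite arrays, an order unlike that of the ribosomal protein genes.

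How far the class stood below satellite cells depended on the scaling, and also on the background correction and the filter on dim probes. With quantile normalisation, which gives every array the same distribution, the median of the members was -0.33 for iPax3 and -0.06 for iPax7, and 52 and 45 of the 79 were below 0. In that setting the median over all genes was -0.25 and -0.21, so that the members lay 0.08 below it for iPax3 and 0.15 above it for iPax7, against 0.78 and 0.38 below it with the 75th percentile. In the authors' deposited value table the medians were -0.34 and -0.07, where those over all genes were -0.19 and -0.15, so that the members lay 0.15 below all genes for iPax3 and 0.08 above them for iPax7. With another background correction the members' median minus that of all genes was -0.45 for iPax3 and -0.08 for iPax7. It was -0.55 and -0.16 with only probes above background on all 9 arrays, and -0.83 and -0.53 with no filter on dim probes. Satellite replicate 3 also weighed on the size: without it the median was -0.57 for iPax3 and -0.09 for iPax7, and 65 and 44 members were below 0. Minus the median of all genes, these medians were -0.52 and -0.09. Without iPax3 replicate 2 the iPax3 median was -0.62, or -0.29 after subtracting that of all genes. The iPax7 median was -0.93 without iPax7 replicate 1 and -0.24 without iPax7 replicate 2, or -0.75 and -0.10 after this subtraction. For both lines together the median was -0.40 without satellite replicate 3, or -0.38 after it.

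**Figure D5:**
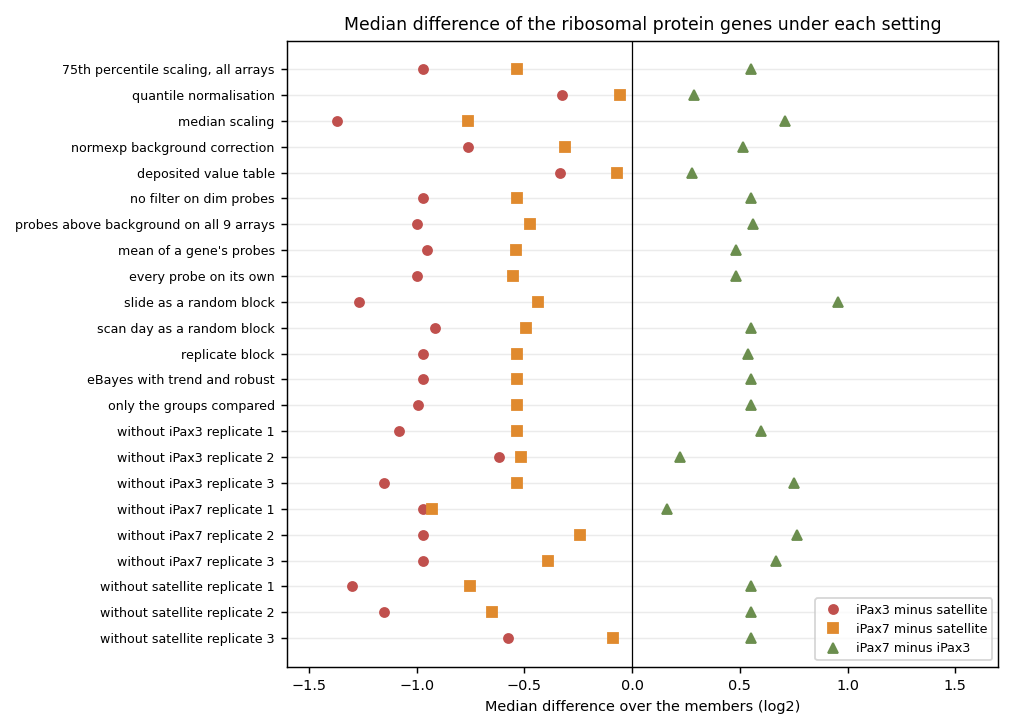
Median difference over the ribosomal protein genes (horizontal axis, log2) under each setting (rows), for iPax3 minus satellite, iPax7 minus satellite and iPax7 minus iPax3. The signs of these medians, from which the median of all genes is not subtracted, hold in every setting shown. The iPax7 minus satellite median comes nearest to 0 with quantile normalisation (-0.06), the deposited value table (-0.07) and without satellite replicate 3 (-0.09).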

How the data were processed

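Per the file headers, the scanner intensities were made with Agilent Feature Extraction 10.5.1.1, with detrending and background subtraction, and they place probes on build mm8. The authors also deposited a table of log2 values for 31918 spots, for which the submitters' processing notes name limma without steps. It served as an alternative. Groups and replicate numbers came from the sample titles.

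The processed signal of 43379 non-control spots per array was taken as log2 minus the 75th percentile of the array. Outlier spots were left out, spots of a probe averaged, and probes retained that were well above background on 3 or more arrays, with values on at least 7 arrays and 2 of each group (32982 of 41174). The probe with the highest mean stood for its gene. Genes were tested with limma 3.58.1 (R 4.3.3) in a fit of 3 group means over 9 arrays, with an adjusted p (Benjamini-Hochberg) of 0.05 as the threshold. The model was run on simulated data with known changes. The simulated noise was independent for each gene and array, so shared slide or scan-day effects were not part of that check. The labels give 3 independent experiments but do not tie each array to its own, so the p-values reflect only how these samples vary, which may be technical. The number of arrays limits the precision.

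Members were matched by the name in the files, and 2 probes filed under the older name of Rplp0 were kept apart. All 79 were found in RefSeq, where Rps3a is Rps3a1. The members, gene lists and naming rule were chosen with earlier results of these data known. Named were members that passed, those with the largest differences in each comparison and subunit, paralogs and their partners, stalk genes, Rpsa, Rps6, Rps19, Rpl5 and Rpl11, those with the highest and lowest mean or SD, those whose probes disagreed by over 2 log2 units, and, of other lists, those that passed or differed most. Other scalings, background corrections, filters, probe rules, blocks and left-out arrays were tried. A few genes are not reported here.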

Additional observations from a re-analysis of the deposited data

How the results depend on the processing

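Over all alternatives, the median of the members, from which that of all genes is not subtracted, kept its sign in every comparison. Against satellite cells it ran from -1.37 to -0.33 for iPax3, -0.93 to -0.06 for iPax7 and -1.09 to -0.25 for both lines. For iPax7 against iPax3 it ran from 0.16 to 1.36. Relative to all genes the sign did not always hold. For iPax7 against satellite cells the members lay 0.15 above all genes with quantile normalisation and 0.08 above in the deposited value table. The iPax3 median moved most, to -0.33, with quantile normalisation, and that of iPax7 against iPax3 was 1.36 within slide 1, a comparison chosen after seeing the data. For iPax7 against iPax3, 21 members were below 0 in the deposited value table and 22 when the probes of a gene were averaged. With arrays left out in turn, the median ran from -1.30 to -0.57 for iPax3, from -0.93 to -0.09 for iPax7, from -1.05 to -0.40 for both lines and from 0.16 to 0.76 for iPax7 against iPax3. The members below 0 numbered 58 to 68, 44 to 68, 56 to 69 and 12 to 28 in the same comparisons. The members that passed numbered 0 to 1 for iPax3 and for both lines, and 0 in the others; the 1 was Rpl11, without satellite replicate 1. The number of genes that passed overall moved more: for iPax3 it was 98, with 14 under slide as a random block, 27 under scan day, 37 under the replicate block and 453 without satellite replicate 1. For iPax7 it was 121, with 43, 36, 55 and 500, and for both lines 236, with 47, 43, 115 and 715. Median scaling gave 59, 69 and 133, the deposited values gave 186 and 196 for the lines taken singly, and a fit of only the groups compared gave 62 and 46; probes above background on all 9 arrays gave 76 for iPax7. With arrays left out in turn these counts ran from 17 to 453, from 30 to 500 and from 73 to 715. Arrays of the same number did not deviate together (r of -0.13 to 0.06), so the numbers are not taken to pair the samples; the replicate block left the medians at -0.97, -0.54, -0.78 and 0.54 and no member passed. The cause of these changes was not tested. Every setting has 3 arrays a group or fewer, and dim probes such as that of Rpl3l carry no usable difference.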
